A study of Homo sapiens with 2 samples.

Results

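The genes described here are 32 members of the PPAR-alpha, fatty acid oxidation and ketone body pathway, out of 36601 genes counted in single HepaRG cells. They were taken by symbol: 5 regulators, 3 acyl-CoA synthetases, 3 genes of the carnitine shuttle, 12 genes of mitochondrial and 3 of peroxisomal beta-oxidation, ECI2 of both organelles, BDH1 of ketone body synthesis, and CYP4A11, FABP1, PLIN2 and PDK4. All 32 were found, and all 32 passed the filter on low counts.

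HepaRG is a human hepatic cell line sold in a differentiated state, whose cultures hold hepatocyte-like and other cells. The cells had spent 7 days on collagen and then 24 h in 0.1% DMSO, the solvent control of a study of reference chemicals that provoke stress responses. Both libraries received DMSO only and carry the same biological replicate number, so no treatment is compared. The p-values reflect only how these libraries vary, and that variation could be technical. Each was made from 3′-end tags, with 10000 cells loaded.

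The comparison lies between cells of the same libraries, placed by their level of ALB, the albumin gene, which was not among the genes tested. ALB-high cells had at least 50 ALB UMIs (counted molecules) per 10000, ALB-intermediate cells 5 to 50, and other cells fewer than 5. There were 306 ALB-high cells in replicate 1 and 407 in replicate 2, 424 and 493 ALB-intermediate cells, and 3724 and 3994 other cells. These classes are ranges and not cell types: 65 and 98 cells lay between 40 and 60 ALB UMIs per 10000. The labels call the cells hepatocytes. The other 13 hepatocyte markers summed to 8205 and 7867 CPM (UMIs per 1000000 UMIs of the class) in ALB-high cells, 1554 and 1629 in ALB-intermediate cells, and 241 and 273 in other cells. Even in ALB-high cells the apolipoprotein gene APOA2 stood at 0.142 and 0.522 CPM and the drug-metabolizing CYP3A4 at 1.56 and 1.04 CPM.

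Depth and cell state moved with the classes. Median UMIs per cell were 20653 and 12441 in ALB-high cells, 18426 and 11074 in ALB-intermediate cells, and 17348 and 10178 in other cells. The median mitochondrial share of UMIs was 13.5% and 13.6% in ALB-high cells against 8.43% and 8.61% in other cells. The 10 proliferation markers summed to 717 and 671 CPM in ALB-high cells, 1313 and 1194 CPM in ALB-intermediate cells, and 1868 and 1884 CPM in other cells. The 9 mesenchymal markers summed to 56.4 and 68.2 CPM in ALB-high cells and 248 and 259 CPM in other cells, and the 7 biliary markers to 345 and 371 CPM and 712 and 719 CPM in those classes. The part of mesenchymal and biliary RNA and of the mitochondrial share in the differences below was not tested. UMIs of 7 genes of the proliferation list are called mitotic UMIs here, and cells with any of them mitotic cells, with no phase measured. The name is a label only: a single such UMI is enough, and it does not show that a cell was in mitosis. Cells so labelled were 55.6% and 53.6% of ALB-high cells, 78.8% and 71.0% of ALB-intermediate cells, and 82.4% and 78.5% of other cells. Leaving them out kept 136 and 189, 90 and 143, and 655 and 859 cells of those classes. Values without mitotic cells are given beside some results only, not beside each result that they move.

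Fatty acids are tied to coenzyme A before they are burned. Long chains then cross into mitochondria through the carnitine shuttle and are shortened there, while peroxisomes shorten very long and branched chains and acids carrying a carboxyl group at each end. PPAR-alpha, the product of PPARA, is a nuclear receptor that pairs with RXR, binds fatty acids and drug ligands, and switches on many of these genes in the fasting liver. Its known DNA element is a direct repeat of the hexamer AGGTCA with a spacer of 1 base.

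The promoter shown is that of FABP1, a known PPAR-alpha target and the member that differed most between the classes. It is the RefSeq sequence (GRCh38.p14, minus strand, chr2:88128117-88128312), which ends 54 bases before the RefSeq start because GENCODE 29 places the gene's outer end there. The capitals mark the hexamer read on the opposite strand (TGACCT), whose first base lies 68 bases before the RefSeq start. After a spacer of 1 base the sequence goes on as tggccg. These letters resemble TGACCT but complete neither repeat pattern searched below, so they are not marked.
FABP1: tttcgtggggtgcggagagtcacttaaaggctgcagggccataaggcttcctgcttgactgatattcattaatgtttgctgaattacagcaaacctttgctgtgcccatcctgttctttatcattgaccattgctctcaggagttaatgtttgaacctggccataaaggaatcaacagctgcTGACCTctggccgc
In the 250 bases before each RefSeq start, searched on both strands, AGGTCA occurred in 12.1% of 35116 windows and in windows of FABP1 and PPARG among the 28 members with a window. Its direct repeat with any 1 base between the copies occurred in 0.0171% of all windows and in windows of 0 of the 28 members. With any base at the fourth position of each copy (AGGNCA) the repeat occurred in 0.268% of all windows and again in 0 of the 28. These matches are letters in a short window and no measure of binding.

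The first comparison asked how the pathway stands in ALB-high cells relative to cells with little albumin RNA. Nearly the whole pathway was higher in ALB-high cells: 30 of the 32 members were called higher and 2 lower (edgeR quasi-likelihood test on UMIs summed by class and library, Benjamini-Hochberg adjusted p below 0.05 over 15814 genes). Calls were common in this comparison: 62.4% of all tested genes were called, 32.1% higher and 30.2% lower. By 2-fold or more, 15 members were higher and 0 lower, against 9.89% and 7.73% of all genes. The median log2 fold change of the members was 0.97, against 0.01 over all genes. Without mitotic cells in any class (a choice made after seeing the data), 27 members were called higher and 2 lower, and 5856 genes were called in all. CYP4A11 was not tested in that setting, and the share of all genes called there was not counted.

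**Figure D1:**
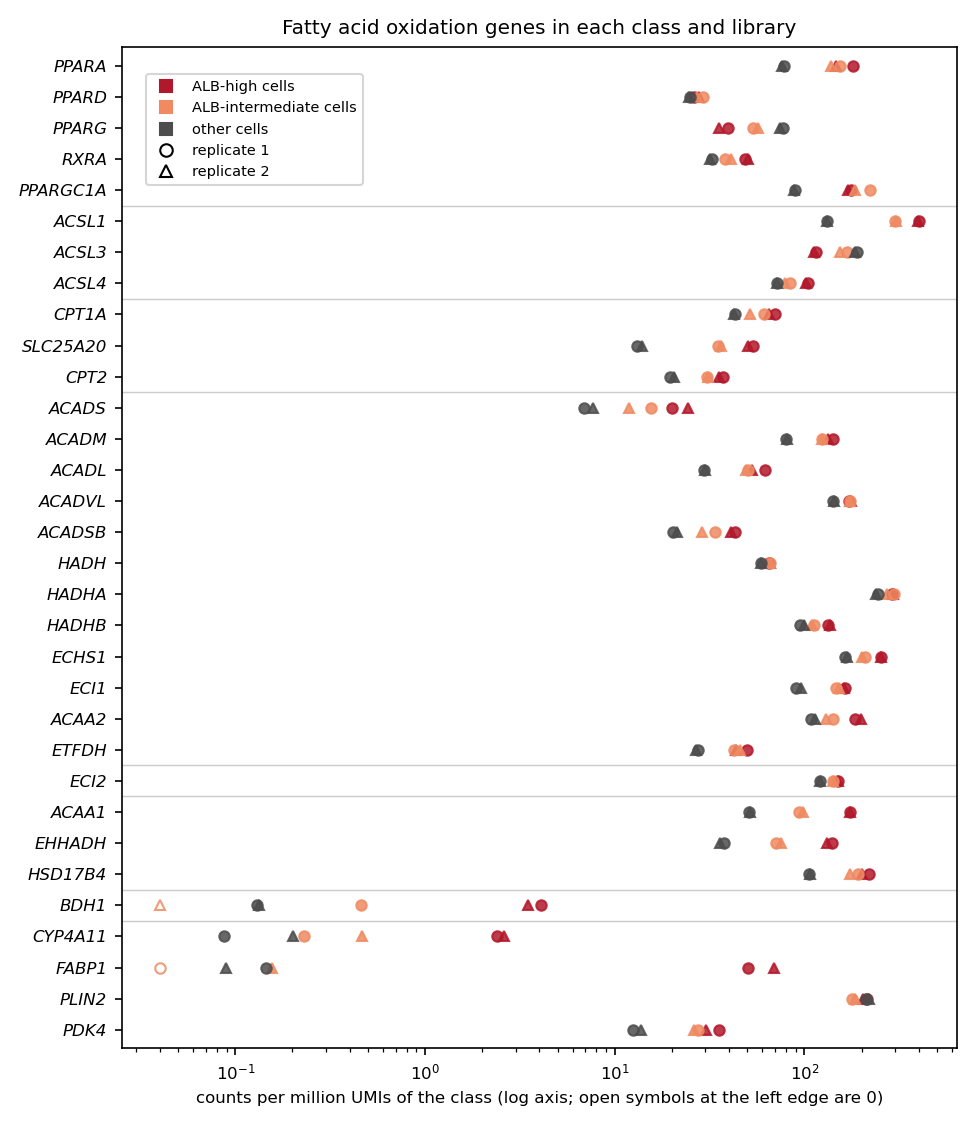
Level of each gene in CPM of its class and library on a log axis, with colours for the classes, circles for replicate 1, triangles for replicate 2 and open symbols for 0. The replicates of a class lie close together, ALB-high cells lie to the right for most genes, and PPARG and ACSL3 run the other way.

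PPARA had 181 and 146 CPM in ALB-high cells, 153 and 137 CPM in ALB-intermediate cells, and 78.2 and 76.5 CPM in other cells. The gene lies at chr22:46150521-46243756 (GENCODE 29, GRCh38, plus strand). ALB-high cells lay above other cells in both libraries, by 1.25 ± 0.05 on the log2 scale (± SE; adjusted p = 6.6e-21). Between ALB-high and ALB-intermediate cells the libraries overlapped, with a log2 fold change of 0.27 ± 0.06 (adjusted p = 0.00042). Without mitotic UMIs in any class the change was 1.05 against other cells and 0.12, no longer called, against ALB-intermediate cells. With mitotic cells left out of other cells only, the change against other cells was 0.90.

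PPARG, the family member known for driving fat cell formation, showed the opposite order. It had 39.4 and 35.3 CPM in ALB-high cells, 53.8 and 56.9 CPM in ALB-intermediate cells, and 77.2 and 74.5 CPM in other cells. Its log2 fold change was -0.85 ± 0.07 in ALB-high against other cells (adjusted p = 3.2e-13). Without mitotic UMIs in any class the change was -1.19. The 5 fat cell markers summed to 66.9 and 70.7 CPM in ALB-high cells and 32.6 and 34.6 CPM in other cells, nearly all of it CIDEC, with 65.0 and 68.4 CPM in ALB-high cells and 29.8 and 31.3 CPM in other cells. PLIN1 had 1.56 and 1.74 CPM in ALB-high cells and 0.217 and 0.245 CPM in other cells, FABP4 had 0.283 and 0.522 CPM and 2.51 and 3.05 CPM in those classes, and ADIPOQ and LEP were at 0 CPM in ALB-high cells of both libraries. The part of these markers in the difference was not tested.

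PPARD, the broadly expressed receptor of the family, had 26.2 and 27.7 CPM in ALB-high cells, 29.3 and 27.1 CPM in ALB-intermediate cells, and 25.1 and 24.8 CPM in other cells. Its log2 fold change against other cells was 0.27 ± 0.09 (adjusted p = 0.0075) and turned to -0.13 without mitotic UMIs in any class. RXRA, which encodes the partner receptor, had 48.6 and 50.5 CPM in ALB-high cells, 38.2 and 40.9 CPM in ALB-intermediate cells, and 32.4 and 31.7 CPM in other cells. It was higher in ALB-high than in other cells, by 0.79 ± 0.07 on the log2 scale (adjusted p = 6.1e-12).

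PPARGC1A, which encodes the coactivator PGC-1alpha of mitochondrial and fasting genes, was highest in the middle class. It had 175 and 169 CPM in ALB-high cells, 223 and 185 CPM in ALB-intermediate cells, and 89.3 and 87.8 CPM in other cells. ALB-high cells were above other cells by 1.12 ± 0.05 (log2, adjusted p = 1.9e-19) and below ALB-intermediate cells, with a log2 fold change of -0.15 ± 0.06 (adjusted p = 0.038). Without mitotic UMIs in any class the difference of PPARGC1A from other cells was 0.61 on the log2 scale, and 0.40 with mitotic cells left out of other cells only.

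A finer split of the cells by ALB, chosen after seeing the data, showed this turn more clearly. In replicate 1, PPARGC1A had 83.6 CPM in cells with 0 to 1 ALB UMIs per 10000, 235 CPM at 20 to 50, and 93.9 CPM at 300 and above. In replicate 2 these levels were 80.9, 202 and 76.3 CPM. PPARA had 75.2, 166 and 172 CPM in the same bins of replicate 1 and 72.5, 141 and 154 CPM in those of replicate 2. In the cells richest in ALB the receptor gene stood near its level of the 20 to 50 bin, and the coactivator gene near its level in cells with the least ALB.

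Acyl-CoA synthetases activate fatty acids, and the 3 measured did not move together. ACSL1, the main hepatic form, had 402 and 399 CPM in ALB-high cells, 298 and 302 CPM in ALB-intermediate cells, and 132 and 131 CPM in other cells. The classes were far apart, with a log2 fold change of 1.77 ± 0.04 in ALB-high against other cells (adjusted p = 3.1e-28), and of 1.08 without mitotic UMIs in any class and 0.86 with mitotic cells left out of other cells only. ACSL3, a form found on lipid droplets, had 115 and 113 CPM in ALB-high cells, 167 and 154 CPM in ALB-intermediate cells, and 188 and 184 CPM in other cells. It was lower in ALB-high than in other cells (log2 fold change -0.54 ± 0.05, adjusted p = 2.1e-11). In the finest ALB bins, ACSL3 stood at 190 and 187 CPM in cells with 0 to 1 ALB UMIs per 10000 and at 68.4 and 68.8 CPM at 300 and above. ACSL4, which prefers arachidonic acid, was higher in ALB-high than in other cells, by 0.69 ± 0.05 on the log2 scale (adjusted p = 4.6e-14).

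In the carnitine shuttle all 3 genes were higher in ALB-high than in other cells. SLC25A20, the carrier that exchanges acylcarnitine for carnitine across the inner membrane, had 53.3 and 50.7 CPM in ALB-high cells, 34.8 and 36.4 CPM in ALB-intermediate cells, and 13.0 and 13.9 CPM in other cells. Its log2 fold change of 2.12 ± 0.08 in ALB-high against other cells (adjusted p = 9.7e-23) was the largest of the 3. Without mitotic UMIs it was 1.64, and 1.44 with mitotic cells left out of other cells only. CPT2, which hands the chain back to coenzyme A inside, had 37.1 and 35.5 CPM in ALB-high cells and 19.6 and 20.5 CPM in other cells, a log2 fold change of 1.03 ± 0.08 (adjusted p = 3.6e-13). CPT1A, the rate-controlling entry enzyme, differed less, by 0.83 ± 0.06 (log2, adjusted p = 9.5e-14). PDK4, a kinase that turns down glucose oxidation, had 35.6 and 30.3 CPM in ALB-high cells and 12.6 and 13.8 CPM in other cells, a log2 fold change of 1.51 ± 0.10 (adjusted p = 7e-16).

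**Figure D2:**
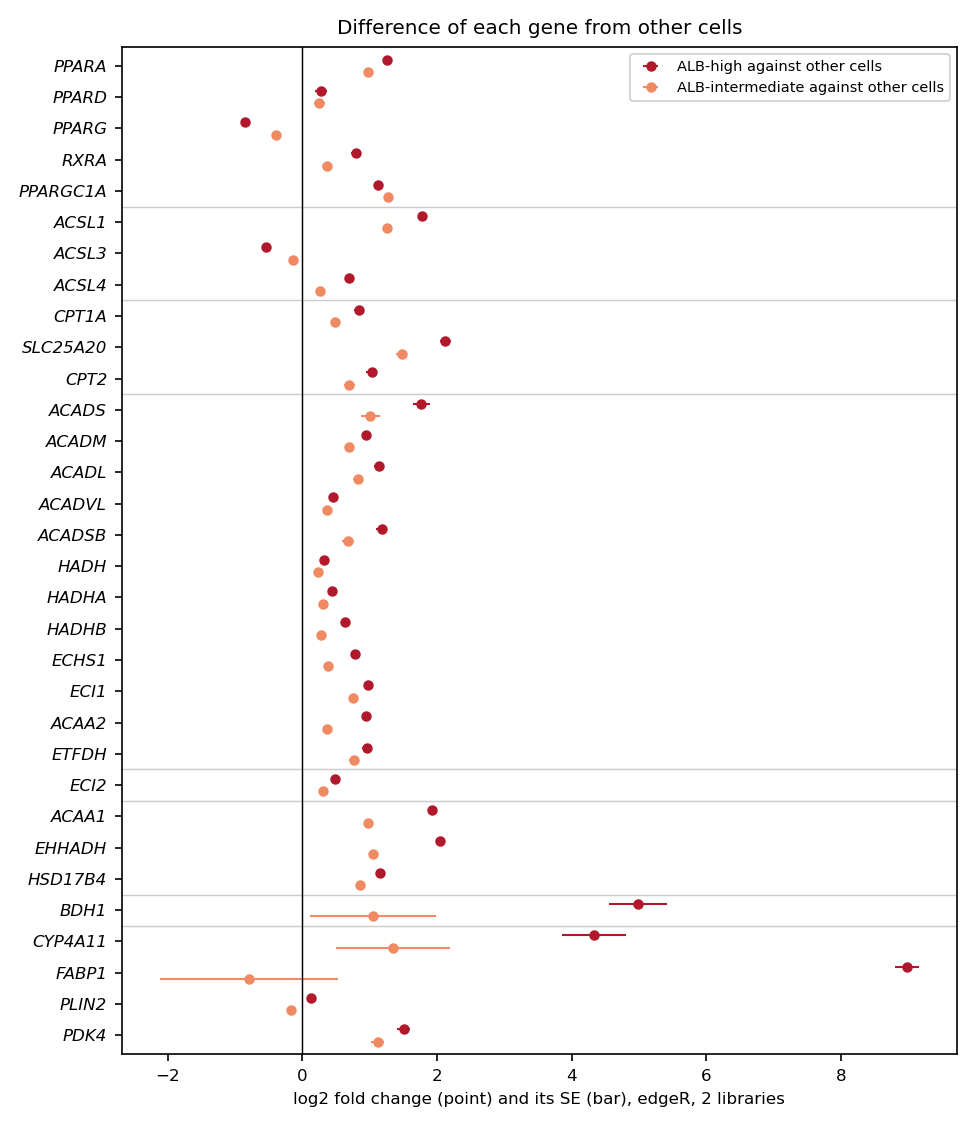
Log2 fold change of each gene against other cells (points) and its standard error (bars) for ALB-high cells in dark red and ALB-intermediate cells in orange. The values in ALB-high cells run from -0.85 for PPARG to 8.98 for FABP1. Those of PPARG, ACSL3 and PPARGC1A are lower in ALB-high than in ALB-intermediate cells.

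All 12 mitochondrial beta-oxidation genes were higher in ALB-high than in other cells, with log2 fold changes between 0.32 and 1.77 and a median of 0.95. ACADS, the short-chain acyl-CoA dehydrogenase, had 19.98 and 24.4 CPM in ALB-high cells, 15.5 and 11.8 CPM in ALB-intermediate cells, and 6.92 and 7.65 CPM in other cells (ALB-high against other cells, log2 fold change 1.77 ± 0.13, adjusted p = 2e-14). ACADSB, the short and branched-chain form, had 42.8 and 40.9 CPM in ALB-high cells and 20.3 and 21.3 CPM in other cells, a log2 fold change of 1.18 ± 0.08 (adjusted p = 7.5e-15). ACADL, annotated as the long-chain form, had 62.1 and 53.1 CPM in ALB-high cells and 29.4 and 29.9 CPM in other cells, a log2 fold change of 1.13 ± 0.07 (adjusted p = 3.4e-16). Without mitotic UMIs ACADL differed by 0.57, and by 0.49 with mitotic cells left out of other cells only.

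The very long-chain enzyme ACADVL and the trifunctional protein subunits differed less. ACADVL differed by 0.46, HADHA by 0.44, HADHB by 0.64 and the short-chain hydroxyacyl dehydrogenase HADH by 0.32 on the log2 scale, each called higher in ALB-high than in other cells. ACADM, ECHS1, ECI1, ACAA2 and the electron transfer enzyme ETFDH lay between 0.79 and 0.98. HADHA and HADHB stand head to head with RefSeq starts 306 bases apart, and overlap on opposite strands in GENCODE 29. ECI2, an isomerase found in both organelles, differed by 0.49 ± 0.05 (adjusted p = 1.1e-10).

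The 3 peroxisomal beta-oxidation genes were each higher by 2-fold or more in ALB-high than in other cells. ACAA1, the peroxisomal thiolase, had 174 and 173 CPM in ALB-high cells, 93.3 and 98.2 CPM in ALB-intermediate cells, and 50.7 and 51.7 CPM in other cells (ALB-high against other cells, log2 fold change 1.93 ± 0.05, adjusted p = 1.9e-28). EHHADH, a bifunctional enzyme of straight chains and a known PPAR-alpha target in rodents, had 139 and 132 CPM in ALB-high cells, 71.0 and 75.1 CPM in ALB-intermediate cells, and 37.7 and 35.9 CPM in other cells (log2 fold change 2.05 ± 0.05, adjusted p = 1.4e-27). HSD17B4, the second bifunctional enzyme, which also takes branched chains, had 219 and 202 CPM in ALB-high cells, 192 and 173 CPM in ALB-intermediate cells, and 106 and 106 CPM in other cells (log2 fold change 1.16 ± 0.05, adjusted p = 7e-21). Without mitotic UMIs in any class the log2 fold changes were 1.72 for ACAA1, 1.90 for EHHADH and 0.90 for HSD17B4, the last of them under 2-fold. With mitotic cells left out of other cells only they were 1.47, 1.62 and 0.65. All values of these 3 genes in ALB-high cells lay above those in other cells, and how many of all genes do so was not counted.

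The balance between the organelles was measured as the peroxisomal share: the UMIs of these 3 genes as a percentage of their sum with those of the 12 mitochondrial genes. The share was 25.2% and 24.3% in ALB-high cells, 20.2% and 20.3% in ALB-intermediate cells, and 15.4% and 15.2% in other cells. The 95% exact binomial intervals, which cover counting error only, were 24.5 to 25.9% and 23.5 to 25.1% in ALB-high cells and 15.2 to 15.7% and 14.9 to 15.5% in other cells. The mean difference between ALB-high and other cells was 9.45 percentage points, far beyond the spread between the libraries, and it had the same sign in both. An exact paired permutation test over 2 libraries cannot give a p below 0.5.

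Genes of both organelles were higher in ALB-high cells, the peroxisomal ones by more. The peroxisomal genes summed to 533 and 506 CPM in ALB-high cells and 194 and 194 CPM in other cells, and the mitochondrial genes to 1578 and 1578 CPM in ALB-high cells and 1064 and 1081 CPM in other cells. Among other cells without mitotic UMIs the share was higher, with a mean of 19.1 ± 0.27% (SD, n = 2). With mitotic cells left out of every class the mean share was 26.9 ± 0.30% in ALB-high cells, a difference of 7.73 points. The cells without mitotic UMIs are also shallower, with medians of 13802 and 8103 UMIs among other cells.

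The same order held for matched steps. At the thiolase step, ACAA1 made up 48.7% and 46.6% of the UMIs of ACAA1 and mitochondrial ACAA2 in ALB-high cells, and a mean of 31.6 ± 0.33% in other cells. ACAA2 itself had 184 and 198 CPM in ALB-high cells, 141 and 129 CPM in ALB-intermediate cells, and 109 and 113 CPM in other cells. At the hydration and dehydrogenation steps, EHHADH made up 31.8 ± 0.95% of the UMIs of EHHADH and mitochondrial HADHA in ALB-high cells and 13.3 ± 0.18% in other cells. HSD17B4 against HADHA gave 42.0 ± 1.59% in ALB-high cells and 30.6 ± 0.49% in other cells (means ± SD, n = 2). HADHA had 290 and 292 CPM in ALB-high cells and 244 and 238 CPM in other cells.

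Across the ALB bins the share climbed and then levelled. In replicate 1 it was 15.2% at 0 to 1 ALB UMIs per 10000, 21.3% at 20 to 50, 27.0% at 150 to 300 and 25.2% at 300 and above. In replicate 2 it was 14.9%, 21.8%, 25.6% and 25.8% in those bins. Mitochondrial ACAA2 had 109 and 112 CPM at 0 to 1 ALB UMIs per 10000, 143 and 151 CPM at 50 to 150, and 313 and 370 CPM at 300 and above.

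**Figure D3:**
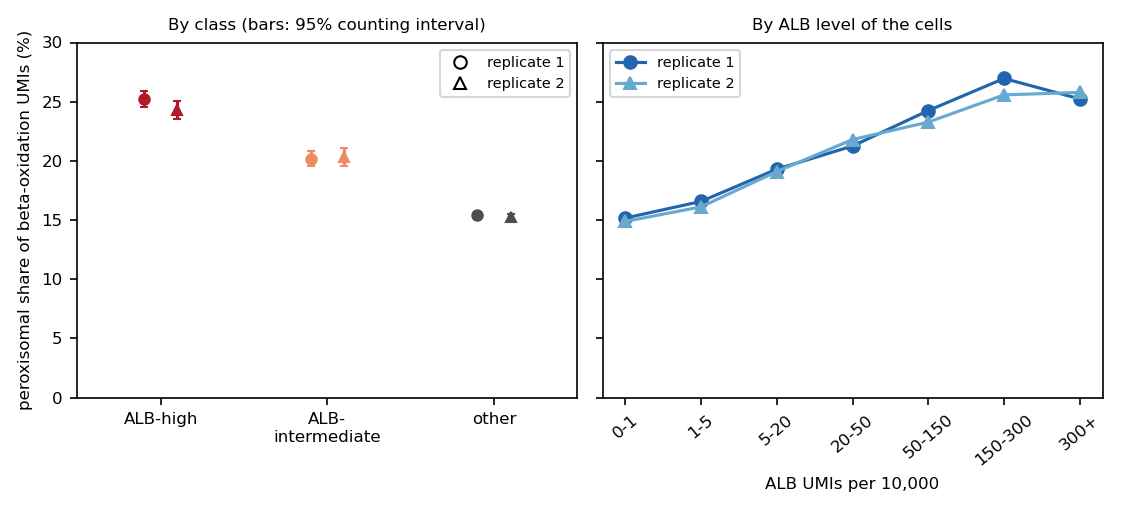
Peroxisomal share of beta-oxidation UMIs in percent, by class on the left (bars, 95% binomial interval) and by the ALB level of the cells on the right, for each replicate. The share is near 25% in ALB-high, 20% in ALB-intermediate and 15% in other cells, and the lines of both replicates climb to the bin of 150 to 300 ALB UMIs per 10000 and then level off.

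FABP1, the liver fatty acid binding protein (chr2:88122982-88128116, minus strand, GENCODE 29), showed the largest difference of all members, and came from few cells. It had 50.3 and 69.3 CPM in ALB-high cells, 0 and 0.156 CPM in ALB-intermediate cells, and 0.144 and 0.0892 CPM in other cells. The UMIs behind these levels were 355 and 398 in ALB-high cells, 0 and 1 in ALB-intermediate cells, and 10 and 4 in other cells. The CPM ratio of ALB-high to other cells was 479 (95% counting interval 284 to 881), and the log2 fold change was 8.98 ± 0.18 (adjusted p = 2.4e-31). Between ALB-intermediate and other cells no difference was called (adjusted p = 0.66), at these counts.

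A FABP1 UMI was found in 41 of 306 ALB-high cells (13.4%) and in 49 of 407 (12.04%), against 0.269% and 0.100% of other cells. After thinning each cell to 4000 UMIs these shares were 7.21% and 6.47% in ALB-high cells against 0.0272% and 0.0763% in other cells. The 10 cells with most FABP1 held 74.9% and 67.8% of the UMIs, with up to 54 and 74 UMIs in a cell. The cells with a FABP1 UMI were richer in ALB, with medians of 278 and 276 ALB UMIs per 10000, against 125 and 113 in ALB-high cells without. They were also deeper, with medians of 28394 and 17778 UMIs against 19633 and 12105.

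**Figure D4:**
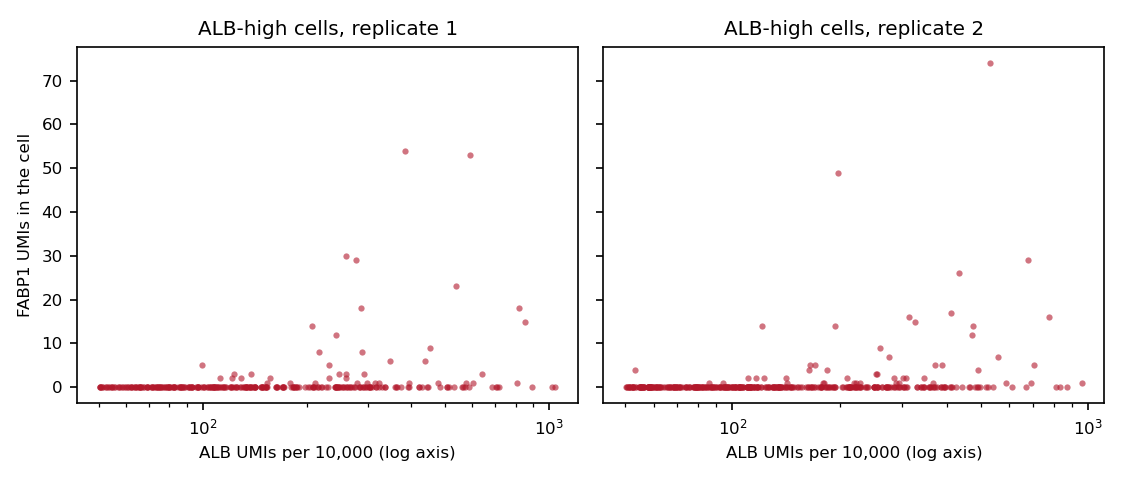
FABP1 UMIs in each ALB-high cell against the cell's ALB UMIs per 10000 on a log axis, for each replicate. Most cells are at 0 at every ALB level, and the highest cells hold 54 and 74 UMIs.

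Within ALB-high cells, those with and without FABP1 were then set side by side, a split chosen after seeing the data and given without a test. BDH1, the mitochondrial enzyme that makes beta-hydroxybutyrate from acetoacetate, had 17.3 and 17.4 CPM in cells with FABP1 and 1.37 and 1.02 CPM in cells without. ACAA2 had 280 and 330 CPM in cells with FABP1 and 163 and 175 CPM in cells without. PPARGC1A went the other way, with 103 and 97.3 CPM in cells with FABP1 and 190 and 181 CPM in cells without. PPARA was close in both, with 170 and 140 CPM in cells with FABP1 and 183 and 148 CPM in cells without.

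BDH1 and CYP4A11 rested on few counts. BDH1 had 29 and 20 UMIs in ALB-high cells, 4 and 0 in ALB-intermediate cells, and 9 and 6 in other cells. That gives 4.11 and 3.48 CPM in ALB-high cells against 0.130 and 0.134 CPM in other cells, 29.1 times as much (95% counting interval 16.1 to 55.9), with a log2 fold change of 4.99 ± 0.43 and an adjusted p of 1.9e-12. CYP4A11, which starts omega-oxidation of fatty acids, had 17 and 15 UMIs in ALB-high cells, 2 and 3 in ALB-intermediate cells, and 6 and 9 in other cells. Its ratio of ALB-high to other cells was 19.0 (95% counting interval 10.0 to 37.8), with a log2 fold change of 4.33 ± 0.48 and an adjusted p of 8.3e-10. The near-identical CYP4A22 makes this count uncertain.

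PLIN2, which coats lipid droplets, had 213 and 203 CPM in ALB-high cells, 177 and 185 CPM in ALB-intermediate cells, and 211 and 218 CPM in other cells, so that ALB-high and other cells overlapped. The test called it higher in ALB-high than in other cells by 0.12 ± 0.05 after TMM scaling (log2, adjusted p = 0.026), while mean CPM was slightly lower in ALB-high cells. With mitotic cells left out of other cells the log2 fold change of PLIN2 was -0.33, and with them left out of all classes it was 0.04 and no longer called. In the ALB bins it had 216 and 224 CPM at 0 to 1 ALB UMIs per 10000, 172 and 182 CPM at 5 to 20, and 298 and 285 CPM at 300 and above.

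The remaining comparisons asked where along the ALB range the members differed. In ALB-high against ALB-intermediate cells 25 members were called higher, 3 lower (PPARG, ACSL3 and PPARGC1A) and 4 were not called (PPARD, ACADVL, HADH and ETFDH), where 31.5% of all genes were called, 16.5% higher and 14.9% lower. The median log2 fold change was 0.34, against -0.0029 over all genes. The 3 members past 2-fold, all higher, were FABP1, BDH1 and CYP4A11, where 4.38% of all genes were higher and 1.32% lower by that much. EHHADH and ACAA1 came next, with log2 fold changes of 1.00 ± 0.06 and 0.96 ± 0.05 (adjusted p = 1.2e-15 and 1e-16). This count depends on the cells used: without mitotic UMIs in any class, 13 members were called higher and 3 lower, and after thinning to 4000 UMIs a cell, 14 higher and 1 lower. The calls over all genes fell beside them, to 2209 without mitotic UMIs and 2245 after thinning, against 4980.

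In ALB-intermediate against other cells 26 members were called higher and 3 lower (PPARG, ACSL3 and PLIN2), where 45.8% of all genes were called, 23.6% higher and 22.1% lower. BDH1, CYP4A11 and FABP1 were not called. The median log2 fold change was 0.68, against 0.01 over all genes. The 6 members past 2-fold, all higher, where 4.33% of all genes were higher and 3.24% lower by that much, were SLC25A20 at 1.47, PPARGC1A at 1.28, ACSL1 at 1.26, PDK4 at 1.12, EHHADH at 1.05 and ACADS at 1.01. These comparisons share classes and are not independent of each other.

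Other genes of the pathway, from lists chosen with earlier results known, were counted in ALB-high against other cells, where 32.1% of all tested genes were higher and 30.2% lower. Of 7 ketone body genes 5 were higher, 1 lower and 1 not called. The higher ones included ACAT1, the thiolase that joins acetyl groups (156 ± 10.8 CPM in ALB-high cells against 97.3 ± 1.54 CPM in other cells), and SLC16A1, a carrier of lactate and ketone bodies, with a small log2 fold change of 0.22 (44.2 ± 6.41 CPM in ALB-high cells against 42.9 ± 0.40 CPM in other cells; SD, n = 2). OXCT1, with which non-hepatic tissues use ketone bodies, was the lower one, with a log2 fold change of -1.21. Of 20 tested further peroxisomal genes 17 were higher, 0 lower and 3 not called. Catalase, CAT, had 114 ± 0.58 CPM in ALB-high cells against 47.0 ± 0.08 CPM in other cells, and the carrier protein gene SCP2 had 191 ± 5.37 CPM in ALB-high cells against 124 ± 3.30 CPM in other cells (SD, n = 2). The membrane transporter ABCD3 and PHYH, which starts the breakdown of phytanic acid, had log2 fold changes of 0.72 and 0.30.

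Of 16 tested further mitochondrial genes 13 were higher, 0 lower and 3 not called. Those of highest level were ETFB and ETFA, which take electrons from the acyl-CoA dehydrogenases, and DECR1, which handles unsaturated chains. Their log2 fold changes were 0.98 for ETFB, 0.70 for ETFA and 1.10 for DECR1. Of 15 tested further PPAR targets 12 were higher, 2 lower and 1 not called. The lipase inhibitor G0S2, the synthetase ACSL5, the lipid droplet gene CIDEC and the lipoprotein lipase LPL had log2 fold changes of 0.55, 1.25, 1.29 and 0.46. FABP4 and CD36, known as PPAR-gamma targets in fat cells and macrophages, were the lower ones, at -2.64 and -0.95. CIDEC and FABP4 also stand in the list of fat cell markers. Of 14 tested cofactors 6 were higher, 2 lower and 6 not called, with a median log2 fold change of 0.09, and their share called was near that over all genes. ESRRA, a partner of PGC-1alpha, had a log2 fold change of 0.99, the coactivators NCOA2 and NCOA1 0.85 and 0.50, and LPIN1 0.79. The deacetylase gene SIRT1 was among the lower ones, at -0.35. The lower genes named from these lists were picked for naming after their values were seen.

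Correlation over cells asked whether cells of a class that had more of a member also had more of another. Within ALB-high cells most pairs were close to 0: the median Pearson r over 435 pairs was 0.04 in replicate 1 and 0.03 in replicate 2, against 0.01 and 0.01 over all gene pairs with the same detection limit. These values are on the log scale of normalised counts, share the depth of the cells, and are descriptions. After thinning to 4000 UMIs the medians were 0.01 and 0.01, against 0.0001 and 0.0002 over all gene pairs. Of the 435 pairs, 37 had an r over 0.1 in both libraries, and of 351 pairs after thinning 1 did. Over all gene pairs the 95th percentile of r was 0.12 and 0.10, and 0.10 and 0.088 after thinning. How many of all gene pairs passed 0.1 in both libraries was not counted.

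Of the 5 pairs with the highest r in ALB-high cells, ranked by the lower of the libraries, 4 lay among ACSL1 and the peroxisomal genes, and the pair ranked after the first was FABP1 and ACAA2. EHHADH and ACSL1 had r of 0.31 and 0.31, ACSL1 and HSD17B4 0.41 and 0.20, ACAA1 and ACSL1 0.31 and 0.20, and EHHADH and HSD17B4 0.21 and 0.19. After thinning, EHHADH and ACSL1 had 0.08 and 0.09, and ACSL1 and HSD17B4 0.23 and 0.02. The pair ranked first after thinning was CPT1A and PPARA, with r of 0.17 and 0.11. FABP1 and ACAA2 had r of 0.32 and 0.26, and 0.18 and 0.13 after thinning. FABP1 and PPARGC1A had the lowest r, -0.22 and -0.20. Over ALB-high cells, r with the ALB level was 0.35 and 0.37 for FABP1, 0.33 and 0.32 for ACAA2, and -0.28 and -0.24 for PPARGC1A. ALB level therefore moved with these pairs, and its part was not tested.

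In other cells the highest pairs joined PPARGC1A, ACSL1 and HSD17B4. PPARGC1A and ACSL1 had r of 0.42 and 0.33 in all other cells, 0.23 and 0.19 after thinning, and 0.29 and 0.31 in those without mitotic UMIs. ACSL1 and HSD17B4 had r of 0.37 and 0.26, PPARGC1A and HSD17B4 0.32 and 0.23, and PPARGC1A and PPARA 0.21 and 0.21. In ALB-high cells PPARGC1A and ACSL1 had 0.20 and 0.08, and PPARA and ACSL1 0.13 and 0.05. Over other cells these genes also moved with the mitochondrial share of UMIs, with r of 0.36 and 0.35 for ACSL1, 0.31 and 0.30 for PPARGC1A, 0.20 and 0.18 for HSD17B4, and 0.13 and 0.15 for PPARA, and the part of that share in the pairs was not tested. The difference between classes in these values was not tested.

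**Figure D5:**
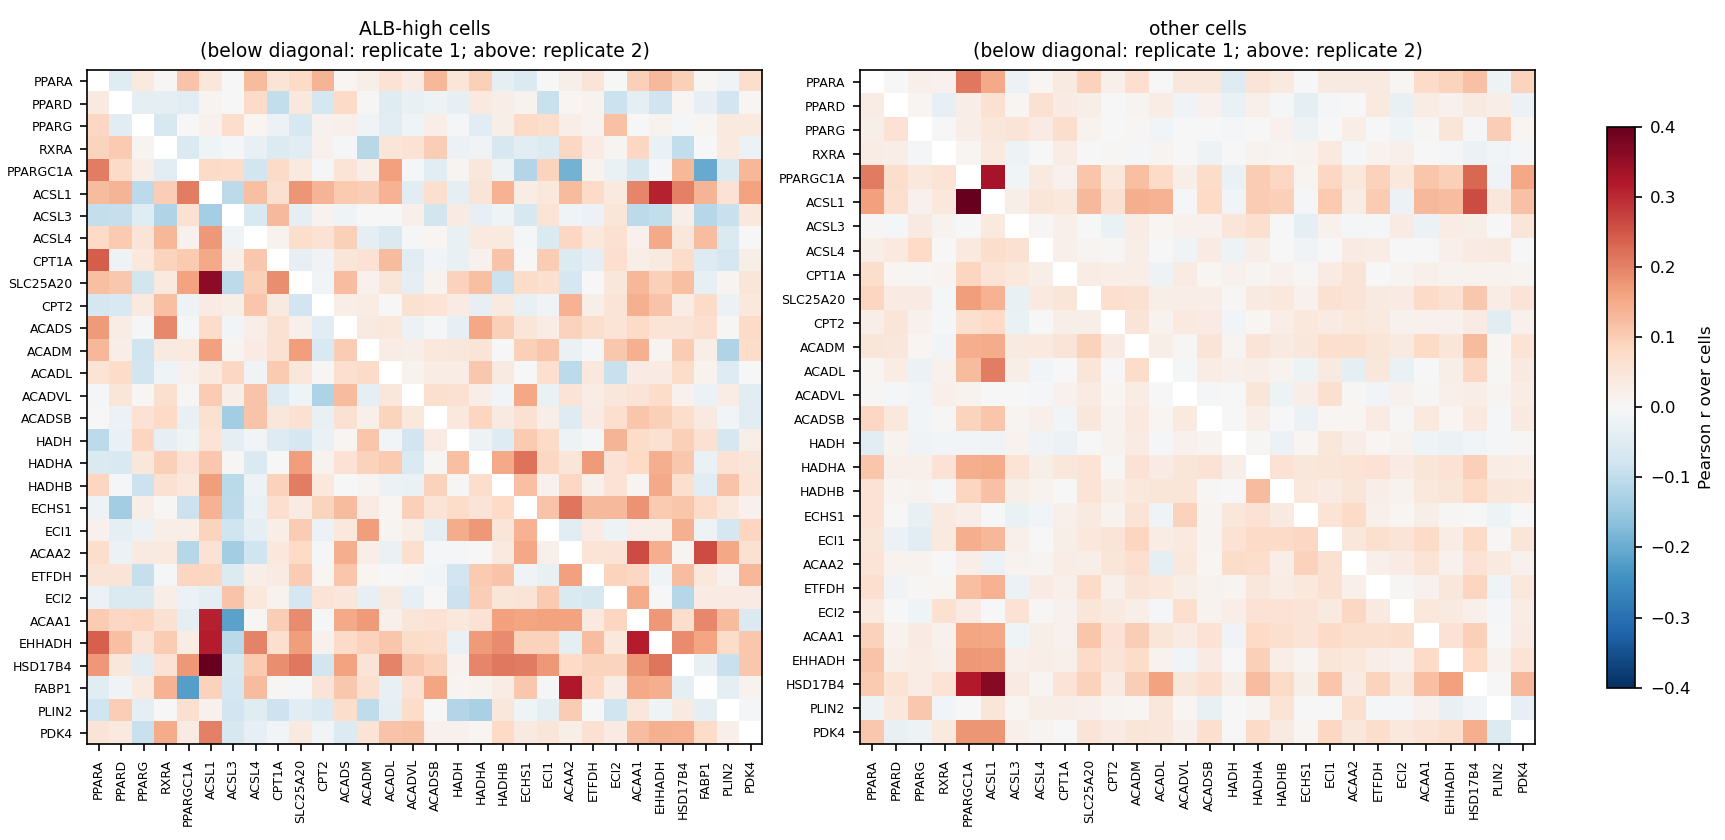
Pearson r between members over ALB-high cells (left) and other cells (right), for members detected in at least 10% of cells in both libraries, with replicate 1 below the diagonal and replicate 2 above, and colours ending at 0.4. On the left the rows of ACSL1, EHHADH and HSD17B4 are redder than most. On the right PPARGC1A, ACSL1 and HSD17B4 stand out from a pale field.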

How the data were processed

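Per the submitters' processing notes, reads were processed with Cell Ranger (7.0.0, per the file headers) and STAR against GRCh38. The deposited matrices hold raw UMI counts per gene and barcode for 36601 genes. How counting used strand is not given in the sources used here, so members that overlap genes on the opposite strand (PPARGC1A, ACSL1, ACSL3, CPT2, ACADL, ACADVL, HADHA, HADHB, ECI1, ETFDH, ECI2, ACAA1 and EHHADH) carry that limit. PPARA, ACSL4, ACADM and HSD17B4 overlap another gene on the same strand. The part of those overlaps in their counts was not tested. Replicate 1 held 4591 barcodes and 85475317 UMIs, and replicate 2 held 4998 and 57246647. They shared 10 barcodes. Barcodes under 500 genes, under 1000 UMIs or over 25% mitochondrial UMIs were dropped, which left 4454 and 4894 cells. Scrublet (scanpy 1.11.5) called 3 and 0 doublets, too few to serve, so doublets were not removed, and leaving out the top 4% of scores was an alternative. The 12 antibody features, with 0 UMIs, were not used.

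Counts were summed by ALB class and library, giving 6 sums. They were tested with edgeR 4.0.16 (TMM scaling, filterByExpr with its minimum count of 10, glmQLFit and glmQLFTest, terms for class and library, 2 residual degrees of freedom), after a check on simulated counts. The library term pairs classes from the same library. ALB was left out. SE on a log2 fold change is that fold change over the square root of F. CPM are UMIs per 1000000 of the class sum, without TMM. Correlations used log-scaled counts over cells. Gene positions are from GENCODE 29 and promoters from RefSeq. The members and lists were chosen with earlier results of these data known. Values by library were given for regulators, members called past 2-fold, matched steps and members past 2-fold between ALB-high and ALB-intermediate cells. Up to 4 called genes of highest CPM were named per wider list, and some genes of these lists are counted but not reported by name here.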

Additional observations from a re-analysis of the deposited data

How the results depend on the processing

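Across 1239 alternative values of the members, 1160 kept direction and, where an adjusted p was available, the call. Of the rest, 60 kept direction and lost the call, 3 gained it and 16 turned direction. Values with no adjusted p, among them all those with a replicate left out, had no call to keep and were judged by direction only. In ALB-high against other cells, thinning to 4000 UMIs left 5834 genes called and leaving cells with mitotic UMIs out of all classes left 5856. In ALB-high against ALB-intermediate cells, DESeq2 called 2987 genes, thinning 2245 (14 members higher, 1 lower) and the mitotic choice 2209 (13 members higher). In ALB-intermediate against other cells these counts were 3844, 3940 (1 member lower) and 2631. Thinning and leaving out cells lower the counts tested. The cause of the DESeq2 difference was not tested.

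Without the replicate block (the pairing of classes by library), 29 members were higher and 2 lower in ALB-high against other cells, 24 and 2 against ALB-intermediate cells, and 26 and 3 in ALB-intermediate against other cells. The genes called were 9674, 4664 and 6928.

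The peroxisomal difference of 9.45 points was 7.13 with ECI2 counted as peroxisomal, 16.0 at the thiolase step, 8.76 after thinning, 10.2 with ALB limits of 2 and 100, 5.63 with mitotic cells left out of other cells only and 7.73 with them left out of all classes. Leaving out a replicate gave 9.08 to 9.81. The median pair correlation was 0.010 after thinning, and 0.031 to 0.039 by replicate.

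PPARD turned direction most often. In ALB-high against other cells it was -0.17 with mitotic cells left out of other cells and -0.13 with them left out of all classes. Against ALB-intermediate cells it was -0.090 with all mitotic cells left out, -0.0070 with ALB limits of 2 and 100, -0.090 with at most 15% mitochondrial UMIs and -0.091 without replicate 2 (0.11 without replicate 1). In ALB-intermediate against other cells it was -0.20 and -0.042 under the 2 mitotic choices. PLIN2 was -0.33 in ALB-high against other cells with mitotic cells left out of other cells. ETFDH was -0.0083 in ALB-high against ALB-intermediate cells after thinning. In ALB-intermediate against other cells, HADHB was -0.049 with mitotic cells left out of other cells. FABP1 was 1.05 after thinning, 1.76 with ALB limits of 2 and 100 and 0.68 without replicate 1 (-3.19 without replicate 2). BDH1 was -2.24 with all mitotic cells left out and -2.59 without replicate 1 (1.71 without replicate 2). FABP1 and BDH1 rest on few UMIs there, and the causes of the other turns were not tested. Leaving mitotic cells out of all classes was chosen after seeing the data.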
